A study of Mus musculus with 6 samples.

Results

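The noncoding snoRNA host genes Gas5, Snhg1, Snhg3, Snhg5, Snhg6, Snhg8, Snhg12, Snhg15 and Zfas1 were examined in I1DN acute myeloid leukemia cells of mice treated with AG636, an inhibitor of the pyrimidine synthesis enzyme DHODH. They are a fixed list of 9 genes among the 54838 genes of the deposited count table, found by their GENCODE symbols, and all 9 were present. I1DN cells are C57BL/6 fetal liver stem and progenitor cells transduced with IDH1R132H, DNMT3AR882H and NrasG12D and passed from a moribund mouse into sublethally irradiated congenic Ptprca recipients. All 6 samples share this genotype, background and host. The 3 Vehicle mice received vehicle and the 3 AG636 mice were gavaged b.i.d. with AG636 at 100 mg/kg. The duration of treatment is given as 1 day in one legend of the study and as 4 days in another. Leukemic cells were sorted from bone marrow and spleen as cKit-positive cells with little or no CD11b, so that each sample is the RNA of many cells of 1 mouse, and the number of independent I1DN leukemias behind the 6 mice is not given in the sources used here.

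Small nucleolar RNAs (snoRNAs) guide the chemical modification of ribosomal RNA. Box C/D snoRNAs direct methylation of the ribose and box H/ACA snoRNAs direct pseudouridylation, each within a particle of core proteins. In mammals most snoRNAs are cut from the introns of longer host transcripts. The hosts studied here encode no established protein in their spliced RNA, and several, Gas5 among them, begin with a run of pyrimidines as ribosomal protein mRNAs do and are degraded by nonsense-mediated decay when translated. Their level in a library of polyadenylated ends is that of the host RNA and not of the snoRNAs, which carry no poly(A) tail.

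Between 4634963 and 7906589 reads per sample were assigned to genes. After low counts were removed, 11092 genes were tested with edgeR's quasi-likelihood test, and a gene was called when its Benjamini-Hochberg adjusted p over all genes tested was under 0.05. The median log2 fold change of all genes tested, AG636 against Vehicle, was 0.03. Levels are given as CPM, counts relative to scaled library sizes, which were not divided by length because the libraries hold about 1 tag per transcript. A count of 3, the smallest taken as detectable, was worth 0.392 to 0.637 CPM. The 7 markers of AML cell identity were all tested, with summed levels of 1955 to 3678 CPM in Vehicle and 1492 to 3084 CPM in AG636 samples, and 3 of them were called higher. Mature neutrophil markers moved with the treatment, since 6 of 7 were called higher and their sum was 1027 to 2350 CPM in Vehicle against 2857 to 5865 CPM in AG636 samples. Erythroid markers summed to 1641 to 4664 CPM against 1941 to 3221 CPM, with 2 of 7 called lower, and macrophage markers to 17.1 to 19.4 CPM against 20.4 to 46.8 CPM, with 1 of 5 called higher. B cell markers reached at most 19.5 CPM in any sample and T cell markers at most 7.33 CPM. None of these markers was at 0 in all samples, and their part in the results below was not tested.

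The hosts differ in size and in the number of annotated snoRNA entries they carry. In GRCm38 coordinates, Gas5 (ENSMUSG00000053332) lies on the plus strand at chr1:161034422-161038539 and holds 10 annotated snoRNA entries, the most of the 9 hosts. Snhg1 (ENSMUSG00000108414), at chr19:8723475-8726443 on the plus strand, holds 8, and Snhg12 (ENSMUSG00000086290), at chr4:132308623-132311024 on the plus strand, holds 5. Snord80 of Gas5 and Snora16a of Snhg12 are each entered more than once at overlapping positions, and 1 entry of Gas5 is named Mir5117. Zfas1 (ENSMUSG00000074578), at chr2:167062934-167065862 on the plus strand, holds 3, Snord12 among them. Snhg3 (ENSMUSG00000085241), at chr4:132348014-132353686 on the minus strand, holds Snora73a and Snora73b, and Snhg5 (ENSMUSG00000097195), at chr9:88521050-88522929 on the minus strand, holds Snord50a and Snord50b. Snhg6 (ENSMUSG00000098234), at chr1:9941959-9944118, Snhg8 (ENSMUSG00000104960), at chr3:123507552-123508404, and Snhg15 (ENSMUSG00000085156), at chr11:6525591-6528760, all on the minus strand, hold 1 each, which are Snord87, Snora24 and Snora9. The annotation includes transcripts with retained introns, 20 of 25 for Gas5 and 14 of 18 for Snhg1, so counted exons cover 91.3% of the span of Gas5 and 100.0% of that of Snhg1, Snhg8, Snhg12 and Zfas1. Counts of spliced and unspliced host RNA could therefore not be separated in these genes.

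**Figure D1:**
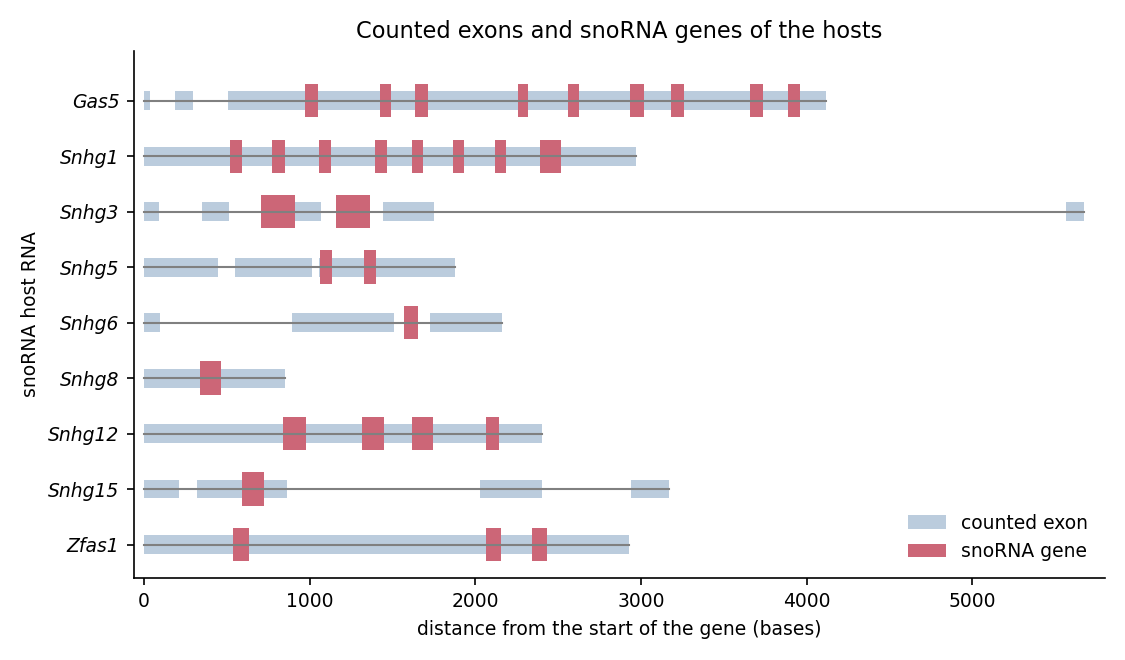
Map of the 9 hosts, drawn 5′ to 3′ from the start of each gene in bases, with the exons counted by the authors as pale boxes and the annotated snoRNA genes as red boxes. Gas5 and Snhg1 carry 10 and 8 snoRNA entries, Snhg6, Snhg8 and Snhg15 carry 1 each, and the 2 snoRNAs of Snhg3 lie in a gene of which 17.4% is counted as exon.

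The snoRNAs of 3 hosts are shown because Snhg5 and Snhg8 mark the ends of the range of log2 fold changes described below and because Snord87 of Snhg6 was among the few snoRNAs with counts. Snord50a (chr9:88521529-88521600) and Snord50b (chr9:88521797-88521868) come from Snhg5, Snord87 (chr1:9942463-9942549) from Snhg6 and Snora24 (chr3:123507937-123508066) from Snhg8, all on the minus strand. Sequences are those of the GENCODE M21 transcripts, written 5′ to 3′ with box C and box D in capitals for the first 3 and the ACA box in capitals for Snora24.
Snord50a: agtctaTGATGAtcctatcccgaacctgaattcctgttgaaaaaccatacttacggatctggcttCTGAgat
Snord50b: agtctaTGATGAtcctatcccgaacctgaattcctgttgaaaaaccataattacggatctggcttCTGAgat
Snord87: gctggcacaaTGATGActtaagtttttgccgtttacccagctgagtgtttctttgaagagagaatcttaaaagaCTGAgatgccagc
Snora24: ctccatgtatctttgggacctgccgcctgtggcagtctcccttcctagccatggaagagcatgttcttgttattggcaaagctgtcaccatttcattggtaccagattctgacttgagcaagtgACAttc
The 2 snoRNAs of Snhg5 are 72 bases long and differ at 1 base, C50A, counted from 1 at the 5′ end with the base of Snord50a given first. In Snora24 the ACA box lies 3 bases from the 3′ end.

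RefSeq promoter windows (GRCm38.p6) were found for 8 of the 9 hosts, 9 windows in all because Gas5 has 2. The 41 bases around the annotated start, with the start as the middle base, are shown for 6 hosts to compare the runs of pyrimidines, and runs of at least 6 C or T are in capitals.
Gas5, chr1:161035146-161035186, plus strand: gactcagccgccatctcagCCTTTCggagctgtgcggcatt
Snhg1, chr19:8723467-8723507, plus strand: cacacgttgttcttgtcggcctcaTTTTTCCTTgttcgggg
Snhg12, chr4:132308658-132308698, plus strand: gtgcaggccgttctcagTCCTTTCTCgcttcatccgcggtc
Snhg5, chr9:88522877-88522917, minus strand: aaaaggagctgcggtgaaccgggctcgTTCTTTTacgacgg
Snhg8, chr3:123508316-123508356, minus strand: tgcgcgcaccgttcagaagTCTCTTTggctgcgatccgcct
Zfas1, chr2:167062914-167062954, plus strand: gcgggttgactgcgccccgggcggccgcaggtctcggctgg
A run of this length, before or after the start, was present in 5 of the 9 windows of the hosts and in 38.1% of 32851 RefSeq promoter windows. Relative to the start base, the run began at −1 in Gas5 and Snhg8, −3 in Snhg12, 4 in Snhg1 and 7 in Snhg5. Of the hosts with a run in their window, Snhg1, Snhg5 and Snhg12 were called lower with AG636 and Snhg8 was not called. Of those without such a run, Zfas1 and Snhg3 were called lower and Snhg15 was not called. Gas5, called lower, had a run in 1 of its 2 windows. The start in the window shown lies 744 bases from the start of Gas5 in the count table, and the other window, with a start 179 bases away, had a longest run of 3. In the full windows of 300 bases, searched on both strands, TATAAA was found in 4 of 9 (Snhg1, Snhg3, Snhg5 and Snhg8) against 13.6% of all windows. CACGTG, the E-box that MYC and MAX can bind, was found in 1 (Snhg15) against 7.2%. CCATNTT, the YY1 core, and CCGGAAG, an ETS core, were each found in 1 (Snhg3) against 16.1% and 8.9%. These matches describe letters in the window and not bound sites.

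The question of the comparison was which host RNAs differ between AG636 and Vehicle. With AG636, 6 of the 9 hosts were called lower and 0 were called higher, against 11.0% of all genes tested called lower and 10.3% called higher. The hosts called lower were Gas5, Snhg1, Snhg3, Snhg5, Snhg12 and Zfas1, and Snhg6, Snhg8 and Snhg15 did not pass the test. All 9 passed the filter on low counts. The median log2 fold change over the 9 hosts was −0.64, with a range from −1.65 to 0.29. For the 6 called hosts every AG636 sample lay below every Vehicle sample, a separation seen in 20.6% of all genes tested. An exact permutation test of 3 samples against 3 gave a two-sided p of 0.1 for these hosts, the smallest that this design allows. In sorted bulk samples, a lower level could reflect less RNA per cell or fewer cells that express the RNA, and these cannot be told apart.

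**Figure D2:**
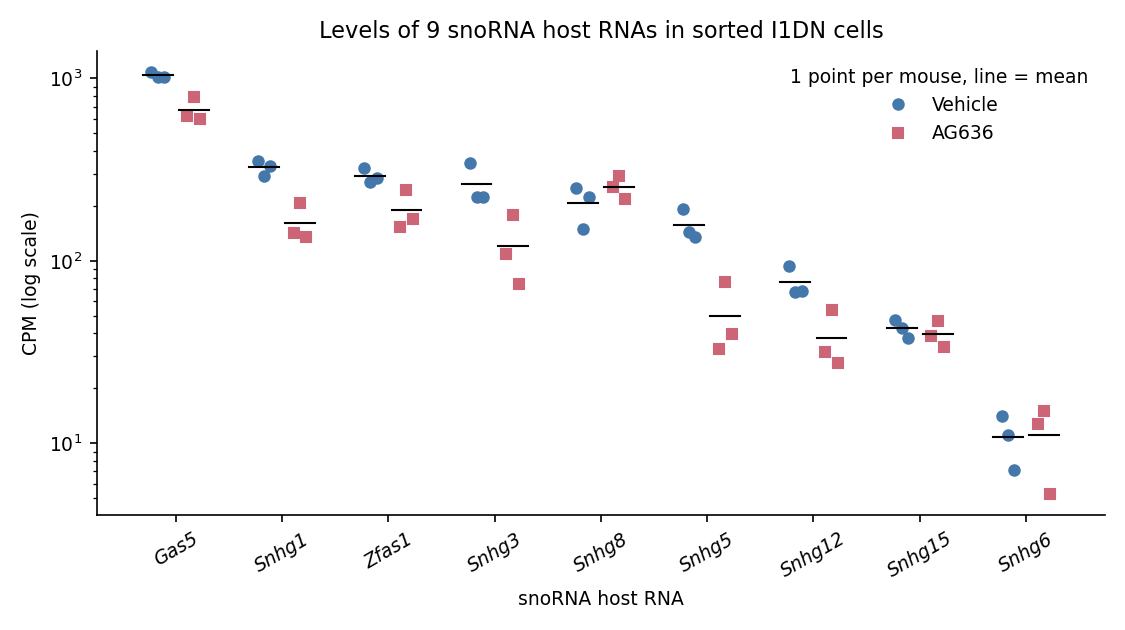
Levels of the 9 host RNAs in CPM on a log scale, ordered by the Vehicle mean, with 1 point per mouse (blue circles for Vehicle, red squares for AG636) and a line at each group mean. The groups are separate for Gas5, Snhg1, Zfas1, Snhg3, Snhg5 and Snhg12 and overlap for Snhg8, Snhg15 and Snhg6.

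Gas5, Snhg1 and Zfas1 were the most abundant hosts in Vehicle samples. Gas5, a host of box C/D snoRNAs first known as a transcript that accumulates in growth-arrested cells, was at 1085, 1019 and 1023 CPM in the Vehicle samples and at 618, 787 and 598 CPM in the AG636 samples. The Vehicle values lay close together, and the highest AG636 sample, replicate 2, was still below all of them. The mean fell from 1043 ± 36.6 to 668 ± 104 CPM (SD, n = 3 each), a log2 fold change of −0.64 with a standard error (SE) of 0.12 and an adjusted p of 0.0088 (edgeR). Gas5 thus stayed at 64.0% of its Vehicle level, the mildest decrease of the called hosts together with Zfas1.

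Snhg1, which hosts box C/D snoRNAs including Snord22, was at 353, 290 and 331 CPM with Vehicle and at 142, 207 and 136 CPM with AG636. Replicate 2 was again the highest of the AG636 samples, and the groups were separate. The log2 fold change was −1.005 (SE 0.17, adjusted p = 0.00549 in edgeR), or 49.8% of the Vehicle level. Zfas1, the host of Snord12 that lies antisense to the start of Znfx1, was at 323, 269 and 284 CPM with Vehicle and at 153, 245 and 170 CPM with AG636. Here the AG636 replicate 2 came close to the lowest Vehicle sample, though without overlap. Its log2 fold change of −0.62 (SE 0.17) had an adjusted p of 0.0308 in edgeR, which lost the call with library size alone (0.0515) and without Vehicle replicate 1 or 2 or AG636 replicate 1 or 3 (0.06 to 0.108).

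Snhg5 showed the lowest log2 fold change of the 9 hosts. This host of Snord50a and Snord50b was at 192, 144 and 134 CPM with Vehicle and at 32.9, 76.9 and 39.6 CPM with AG636. The AG636 replicate 2 was the highest of its group and still well below the Vehicle samples. The mean fell from 157 ± 31.0 to 49.8 ± 23.7 CPM (SD, n = 3 each), with a log2 fold change of −1.65 (SE 0.28, adjusted p = 0.00575 in edgeR) and 31.8% of the Vehicle level remaining. The call was kept under all 13 alternatives of test, scaling, filter, block and sample, as it was for Gas5 and Snhg1.

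Snhg3 and Snhg12 lie on the same chromosome, on opposite strands. Snhg3, the host of the box H/ACA snoRNAs Snora73a and Snora73b, was at 341, 223 and 222 CPM with Vehicle and at 109, 178 and 74.2 CPM with AG636. Its spread within both groups was wide, with Vehicle replicate 1 and AG636 replicate 2 above the other samples of their groups. The log2 fold change was −1.12 (SE 0.29, adjusted p = 0.0227 in edgeR), and the call was lost without Vehicle replicate 1 (0.0539), AG636 replicate 1 (0.0771) or AG636 replicate 3 (0.0629). Snhg12, which carries both snoRNA classes with Snora16a, Snora44, Snora61 and Snord99, was at 93.4, 67.2 and 68.5 CPM with Vehicle and at 31.6, 53.8 and 27.4 CPM with AG636. The same samples were the highest of each group. Its log2 fold change was −1.02 (SE 0.25, adjusted p = 0.0186 in edgeR), with the call lost without AG636 replicate 1 (0.07) or AG636 replicate 3 (0.067).

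The highest sample of each group was the same in all 9 hosts, called or not. Vehicle replicate 1 and AG636 replicate 2 were the highest of their groups in 6 of 6 called hosts and in Snhg6, Snhg8 and Snhg15. The same held for the mRNAs of Dkc1, Nop58 and Ncl, though not for Fbl or Nop56. Over all genes tested, the deviations of these samples from their group means correlated at 0.37. Summed over the 9 hosts, the level was 2701, 2214 and 2331 CPM with Vehicle and 1392, 1899 and 1303 CPM with AG636. Gas5 made up 40.2% to 46.0% of this sum with Vehicle and 41.4% to 45.9% with AG636. Without AG636 replicate 1, and likewise without AG636 replicate 3, 3 of the 9 hosts were called lower (Gas5, Snhg1 and Snhg5). Over all genes tested, 630 of 11372 were called lower without AG636 replicate 1 and 452 of 11221 without AG636 replicate 3. With all 6 mice, 1222 of 11092 genes were called lower. Over all 6 ways of leaving out a mouse the count of hosts ran from 3 to 6.

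**Figure D3:**
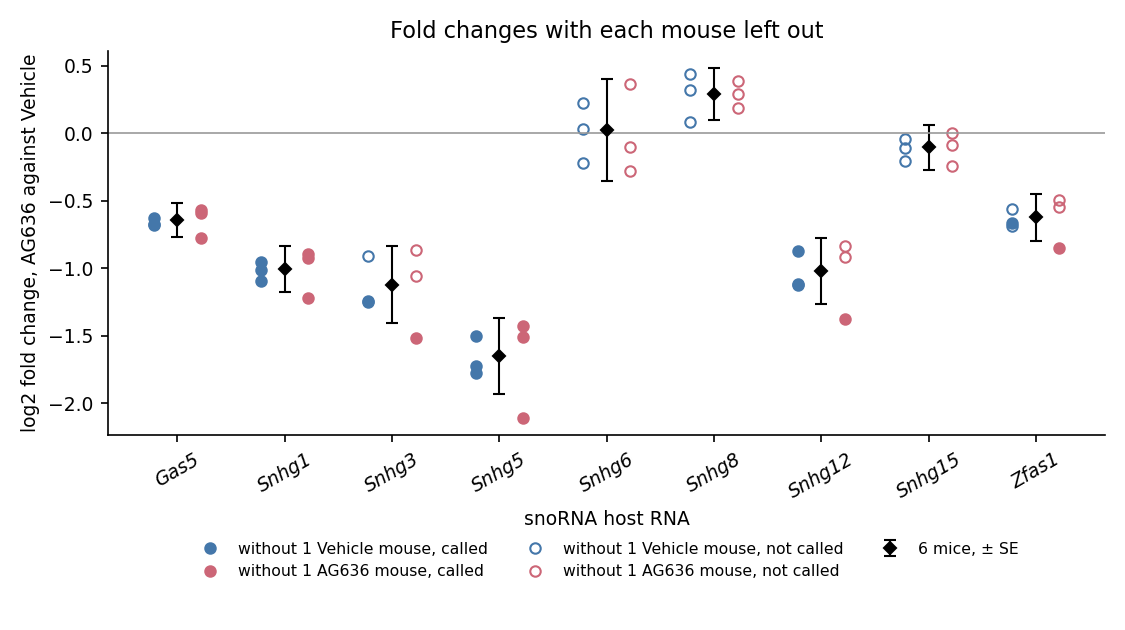
Log2 fold change of each host, AG636 against Vehicle, with all 6 mice (black diamonds, bars ± SE) and with each mouse left out in turn (blue for a Vehicle mouse, red for an AG636 mouse, filled where the host was called). The points of Gas5, Snhg1 and Snhg5 are filled in every case, and those of Snhg6 lie on either side of 0.

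Snhg8, Snhg15 and Snhg6 did not pass the test. Snhg8, the host of Snora24, was at 252, 149 and 223 CPM with Vehicle and at 253, 290 and 218 CPM with AG636. The groups overlapped, with the lowest value in Vehicle replicate 2, and the log2 fold change was 0.29 (SE 0.19, adjusted p = 0.293 in edgeR). Snhg15, the host of Snora9, was at 47.1, 42.8 and 37.8 CPM with Vehicle and at 38.7, 46.6 and 33.6 CPM with AG636. Its log2 fold change was −0.11 (SE 0.17, adjusted p = 0.685 in edgeR). The groups of Snhg15 overlapped over most of their range. Snhg6, the host of Snord87 and the least abundant of the 9, was at 14.1, 11.1 and 7.11 CPM with Vehicle and at 12.7, 15.1 and 5.29 CPM with AG636. Its log2 fold change of 0.02 had an SE of 0.38, the widest of the 9 hosts, and rested on 359 counts over all samples, against 28670 for Gas5. The direction of Snhg6 changed sign in 6 of 13 alternatives. Whether Snhg6, Snhg8 or Snhg15 responded differently from the called hosts was not tested.

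The order of mean levels differed between the groups. Snhg8 stood below Snhg1, Zfas1 and Snhg3 in Vehicle samples and above them in AG636 samples. The means of Snhg1 and Zfas1, and those of Snhg12 and Snhg15, also changed places. In Vehicle samples Gas5 stood apart from the rest at 1043 CPM, followed by Snhg1 at 325, Zfas1 at 292, Snhg3 at 262, Snhg8 at 208 and Snhg5 at 157 CPM. The ranges of neighbours in this order overlapped from Snhg1 to Snhg5. Further apart, the range of Snhg5 lay below those of Snhg1, Zfas1 and Snhg3, and the range of Snhg8 below those of Snhg1 and Zfas1. Snhg12 (76.4 CPM), Snhg15 (42.6 CPM) and Snhg6 (10.8 CPM) followed without overlap. In AG636 samples Snhg8 came second at 254 CPM, and its range overlapped that of Zfas1 at 190 CPM. Neighbours then overlapped all the way down from Zfas1 through Snhg1 (162 CPM), Snhg3 (120 CPM), Snhg5 (49.8 CPM) and Snhg15 (39.6 CPM) to Snhg12 (37.6 CPM), and Snhg6 was lowest at 11.0 CPM.

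Almost none of the snoRNAs inside the hosts were counted. Of 33 annotated snoRNA entries, 30 lie wholly inside a counted exon of the host, and all 30 had 0 counts. Only 2 entries, neither wholly inside a counted exon, had any count, 123 counts in total against 65896 for the hosts. How reads in bases shared with a host exon were assigned is not given, so these zeros cannot be read as absence of the snoRNA. Snora73b, in an intron of Snhg3, had 39, 16 and 13 counts with Vehicle and 7, 7 and 3 with AG636, with a log2 fold change of −1.73 (SE 0.59, adjusted p = 0.0599 in edgeR). Snord87, in an intron of Snhg6, had 18, 10 and 8 counts with Vehicle and 1, 0 and 1 with AG636, and did not pass the filter on low counts. For both snoRNAs all 3 AG636 samples were below all 3 Vehicle samples. Such a separation was seen in 20.6% of all genes tested, a set that does not include Snord87. The groups of the host Snhg3 were also separate, and those of the host Snhg6 overlapped. Whether either snoRNA differed from its host was not tested. The reads of both snoRNAs stem from libraries primed on poly(A), so they are not a measure of mature snoRNA.

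The neighbours of the hosts were described because overlapping genes can share reads and divergent genes share a start region. Slc3a2, which encodes the heavy chain of amino acid transporters and starts 106 bases from Snhg1 on the other strand, was at 278, 248 and 284 CPM with Vehicle and at 196, 206 and 187 CPM with AG636. It was called lower, with a log2 fold change of −0.46 (SE 0.11, adjusted p = 0.0197 in edgeR), against −1.005 for Snhg1, and the call was lost without AG636 replicate 1 (0.0637) or AG636 replicate 3 (0.0756). Rcc1, the nucleotide exchange factor of Ran, shares 135 exonic bases with Snhg3 on the same strand, and its log2 fold change was −0.48 (SE 0.19, adjusted p = 0.0981 in edgeR) with overlapping groups. Znfx1, a zinc finger helicase that overlaps Zfas1 by 82 bases on the other strand, was at 24.0 ± 4.46 CPM with Vehicle and 25.5 ± 1.63 CPM with AG636 (SD, n = 3 each). Its log2 fold change was 0.09 (SE 0.19, adjusted p = 0.75 in edgeR). It had 805 counts in all, against 8039 for Zfas1. Zbtb37, which starts 427 bases from Gas5 on the other strand, had a log2 fold change of −0.37 (SE 0.23, adjusted p = 0.259 in edgeR). Mcmdc2, which overlaps Snhg6 by 127 bases on the other strand, had 15 counts over all samples, and Gm17300 and Gm27494, which overlap Snhg3 and Zfas1, had 0. How reads in shared bases were assigned is not given in the sources used here.

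Other noncoding genes listed as snoRNA hosts were mostly low. Of 14 listed, 11 were in the table, of which 8 hold an annotated snoRNA and Snhg10, Snhg20 and Meg3 do not. Of the 6 tested, 1 was called lower and 0 higher, against 11.0% and 10.3% of all genes tested. Their median log2 fold change was −0.20. The called gene was Snhg9, at 399, 401 and 296 CPM with Vehicle and at 144, 168 and 119 CPM with AG636, a log2 fold change of −1.35 (SE 0.17, adjusted p = 0.00242 in edgeR). The groups of Snhg9 were separate, and its exons share 14 bases with Rps2 on the other strand. The log2 fold changes of the other 5 ran from −0.75 to 0.63, and Snhg11, Snhg14, Snhg18, Meg3 and Rian had 0 to 7 counts over all samples. Among the 665 other long noncoding genes tested, 21 were called lower (3.16%) and 133 higher, with a median log2 fold change of 0.47, but their median Vehicle level was 3.88 CPM against 208 CPM for the 9 hosts. Among all 8061 tested genes whose Vehicle mean lay within the range of the hosts, 13.8% were called lower.

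Protein-coding genes also host snoRNAs, and 23 of 47 listed were called lower and 0 higher, against 11.0% and 10.3% of all genes tested. Their median log2 fold change was −0.38. The 4 with the lowest p were Hspa8, the constitutive HSP70 chaperone (−1.12, SE 0.13, adjusted p = 0.00203 in edgeR), Eif4a1, the helicase of translation initiation (−0.80, SE 0.11), Dkc1, the pseudouridine synthase of box H/ACA particles (−1.11, SE 0.16), and Ncl, the nucleolar protein nucleolin (−0.92, SE 0.14). Of the listed hosts that encode ribosomal proteins 7 of 23 were called lower, and of those that do not 16 of 24, with medians of −0.34 and −0.68 on the log2 scale. The count of 7 was 1 with library size alone and without Vehicle replicate 1, AG636 replicate 1 or AG636 replicate 3, 3 without Vehicle replicate 2 and 13 without Vehicle replicate 3, while the count of 16 ran from 12 to 17 over the alternatives. Over the alternatives the count of 23 ran from 13 to 28. It was 15 with library size alone and without Vehicle replicate 1, 14 without AG636 replicate 1 and 13 without AG636 replicate 3.

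The mRNAs of the core proteins that bind the snoRNAs were called lower. These were all 4 measured for box C/D particles, which are the methyltransferase Fbl (−0.91, SE 0.15), Nop56 (−0.69, SE 0.16), Nop58 (−0.97, SE 0.15) and Snu13 (−0.88, SE 0.11). All 4 mRNAs of core proteins of box H/ACA particles were also called lower, with log2 fold changes of −1.11 for Dkc1 (SE 0.16), −1.08 for Nhp2 (SE 0.13), −0.72 for Nop10 (SE 0.11) and −0.75 for Gar1 (SE 0.17). Their adjusted p values in edgeR ran from 0.00222 for Nhp2 to 0.0151 for Nop56. Among all genes tested, 11.0% were called lower. Nop56, Nop58 and Dkc1 are also listed as hosts above. With a mouse left out, 3 or 4 of the 4 were called in each class. Of 11 assembly factors tested, 6 were called lower and 0 higher, against 11.0% and 10.3% of all genes tested. The median log2 fold change of the 11 was −0.69. The called factors included Ruvbl1 (−0.98, SE 0.13), an ATPase of the assembly complex, and Znhit6 (−0.89, SE 0.14). Also among them were Nolc1 (−1.02, SE 0.17), a nucleolar chaperone of snoRNPs, and Naf1 (−0.87, SE 0.15), which loads box H/ACA particles.

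Factors of nonsense-mediated decay, the pathway that degrades several of the spliced hosts, were mostly not called. Of 24 tested, 5 were called lower and 0 higher, against 11.0% and 10.3% of all genes tested. The median log2 fold change was −0.13. The 4 with the lowest p were the translation release factors Etf1 (−0.73, SE 0.15) and Gspt1 (−0.79, SE 0.17), the cap-binding protein Ncbp1 (−0.52, SE 0.12) and the exon junction helicase Eif4a3 (−0.51, SE 0.11), with adjusted p values in edgeR from 0.0101 to 0.0143. These have roles in translation or splicing besides decay. Upf1, Upf2, Smg1 and Smg6 were not called. The count of 5 was 3 without Vehicle replicate 2 or AG636 replicate 1, and 2 without AG636 replicate 3.

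Ribosomal protein genes, whose mRNAs are known to begin with pyrimidine runs, had a smaller median decrease than the hosts. Runs were not counted separately for these genes, and a link to the size of the decrease was not tested. Of 81 tested, 27 were called lower and 0 higher, against 11.0% and 10.3% of all genes tested. The median log2 fold change was −0.31, and 77 of the 81 had a negative value. The 4 with the lowest p were Rpl41 (−0.64, SE 0.10), Rpl7 (−0.59, SE 0.10), Rplp1 (−0.52, SE 0.10) and Rpl13a (−0.55, SE 0.11), and their adjusted p values in edgeR ran from 0.00443 to 0.0101. Counts of this family are uncertain where reads also match processed copies. The count of 27 changed most with the samples, to 4 without AG636 replicate 3, 5 without AG636 replicate 1 or Vehicle replicate 1, 7 without Vehicle replicate 2 and 40 at most, and it was 13 with library size alone. Sets of genes were described by counts and medians here, and the difference between the hosts and these lists was not tested.

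**Figure D4:**
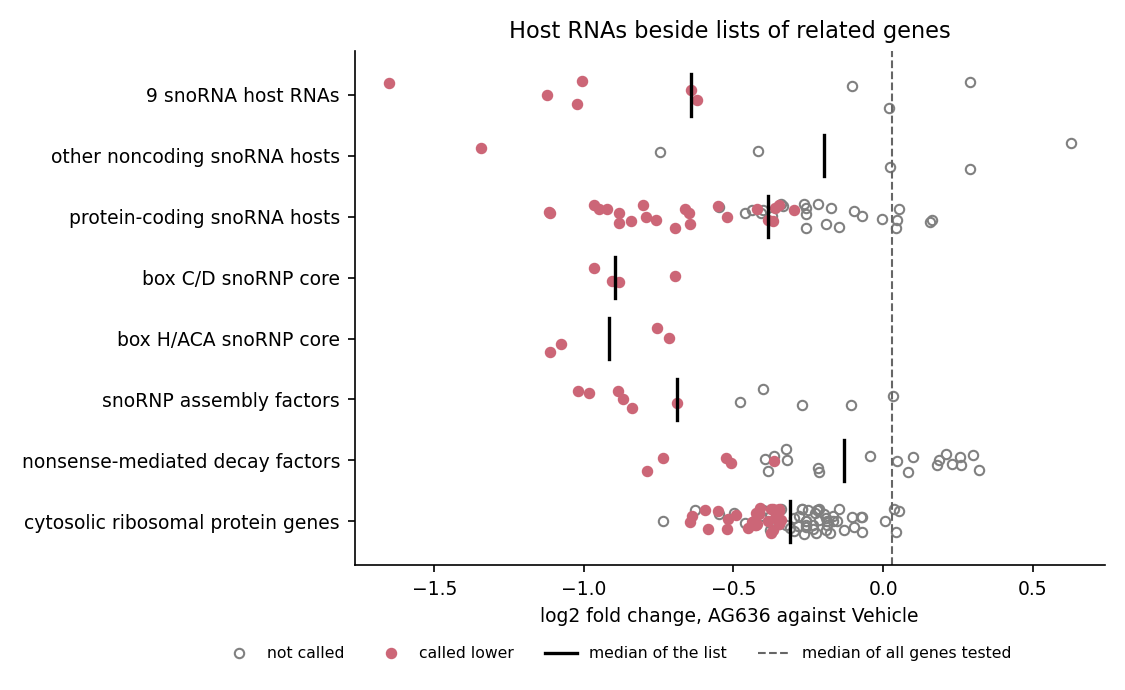
Log2 fold change of every tested gene, AG636 against Vehicle, for the 9 host RNAs and the 7 lists of related genes, with filled points called lower, open points not called, a bar at the median of each list and a dashed line at the median of all genes tested (0.03). The host RNAs spread from −1.65 to 0.29, and the mRNAs of the box C/D and H/ACA core proteins lie between −1.11 and −0.69.

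The genes with profiles most like the mean of the hosts were found by the root mean square difference of centred log2 CPM over the 6 samples. Among the nearest were Trmt5, a tRNA methyltransferase (0.043 on the log2 scale), Tmem109 (0.058), A530083M17Rik (0.070) and Dis3, a nuclease of the RNA exosome (0.080). Among the hosts themselves the difference from their mean was smallest for Zfas1 (0.126) and Gas5 (0.147) and greatest for Snhg5 (0.560) and Snhg8 (0.539). Dis3 was not called (−0.61, SE 0.20, adjusted p = 0.0522 in edgeR) and was called in 8 of 13 alternatives. Trmt5, Tmem109 and A530083M17Rik were also not called with all 6 samples, and A530083M17Rik had only 90 counts in total.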

How the data were processed

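RNA of sorted I1DN cells from 3 Vehicle and 3 AG636 mice was analysed. The authors deposited raw read counts per gene from QuantSeq 3′ libraries, made without stated molecular identifiers. After cutadapt trimming, reads were mapped by HISAT2 to GRCm38 (mm10), and Subread gave the counts. The submitters' processing notes give cutadapt 1.9.1, HISAT2 2.0.4 and Subread 1.5.0-p3, and the paper names other versions of cutadapt and Subread. The annotation release, the use of strand and the handling of multi-mapping reads are not given in the sources used here. GENCODE M21 symbols matched 54723 of 54838 identifiers, with the same start and end for 98.7%.

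The test was run in edgeR 4.0.16 under R 4.3.3 (filterByExpr, minimum count 10, minimum total 15, TMM scaling, quasi-likelihood test, Benjamini-Hochberg adjustment over all genes tested, threshold 0.05). The SE is the log2 fold change divided by the square root of F. The study used limma, and limma-voom (limma 3.58.1) and DESeq2 1.42.0 were alternatives, with median-of-ratios factors, library size alone, other filters, a replicate block, a fold change of at least 1.5 and each sample left out. Replicates differed by more than sampling noise (chi-square per degree of freedom 6.67 to 15.6), and p-values measure the spread between these mice. The floor of 3 counts covers counting error only.

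The members and lists were chosen with earlier results of these data known. Genes named were all members, the called genes with the 4 lowest p in each direction of each list, the core snoRNP proteins, neighbours with overlapping exons or a start on the other strand within 2000 bases, and the 5 genes with the closest profile, of which 1 is not reported here. Snora73b, Snord87 and the other uncalled genes named in the lists were singled out after their values were seen. Log2 CPM used an offset of 0.5.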

Additional observations from a re-analysis of the deposited data

How the results depend on the processing

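With 1 mouse left out, hosts called lower ranged from 3 to 6, all genes called higher from 399 to 1074 and called lower from 452 to 1298, and the median of the hosts from −0.85 to −0.57 on the log2 scale. The 6 hosts were called lower with DESeq2, limma-voom, median-of-ratios factors, both other filters and a fold change of at least 1.5, and 5 with library size alone, which moved the median of all genes from 0.03 to 0.12. No host was called higher in any of these. Snhg6 reversed to −0.092 with limma-voom, −0.0064 without a filter, −0.011 with the replicate block, −0.22 without Vehicle replicate 3, −0.10 without AG636 replicate 1 and −0.28 without AG636 replicate 2, and ranged from −0.28 to 0.36 with 1 mouse left out. Snhg15 reversed to 0.0023 without AG636 replicate 3, in a range from −0.24, and the neighbour Znfx1 to −0.035 without Vehicle replicate 2. None of these 3 was called under any alternative, and the cause was not tested. With the replicate number as a block, 6 hosts were called lower, with a median of −0.65, and 914 genes were called higher and 1046 lower. Deviations of same-numbered samples correlated at −0.06, −0.18 and 0.23, so the numbers were not taken as pairs. The alternatives for the related lists and the other named genes were chosen after seeing the data. Snhg6 had the fewest counts of the hosts, 28 to 85 per sample, and the widest SE, 0.38, and how much of this SE is counting error was not tested.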
